A study of Mus musculus with 153 samples.

Results

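The genes described here encode the protein components of the cytoplasmic ribosome. They were chosen by symbol: a probe set of the array had to carry 1 gene symbol, and that symbol had to begin with Rpl or Rps and a number, or be Rplp0, Rplp1, Rplp2 or Rpsa. Of 83 candidate symbols, 6 Rps6k kinase genes and 2 pseudogenes were left out. This left 75 of 18810 measured genes, of which 42 encode proteins of the large (60S) subunit and 25 proteins of the small (40S) subunit. A further 6 are close relatives of these (Rpl3l, Rpl7l1, Rpl10l, Rpl32l, Rpl39l and Rps27l), called paralogues here. The symbols of the remaining pair, Rps19bp1 and Rps23rg1, fall under the rule although neither gene encodes a subunit.

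The study measured RNA in snap-frozen tail skin of 8 week old, untreated backcross mice, with 1 Affymetrix array per mouse. Their mothers were F1 hybrids of Mus spretus males and Hras-/- FVB/N females, and their fathers were FVB/N mice with 1 or both copies of Hras inactivated. The groups are WT (Hras +/+, 62 males and 52 females) and HET (Hras +/-, 19 males and 18 females), after 2 arrays labelled outlier, both of WT males on plate 2, were set aside. That leaves 81 males and 70 females, and their arrays carry the label of 1 of 3 plates (49, 46 and 56 mice). A WT mouse can have received its maternal Hras copy only from the spretus grandfather, so around Hras on chromosome 7 genotype and strain of origin cannot be told apart. Every mouse of the backcross differs genetically from the others, and each is 1 animal.

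A ribosome is built from RNA and proteins, with nearly every protein present in a single copy, so cells make the proteins in matched amounts. The genes are highly expressed housekeeping genes. Their messenger RNAs begin with a run of pyrimidines, the 5′ terminal oligopyrimidine (TOP) tract, through which growth signalling by mTOR and the RNA-binding protein Larp1 sets their translation. In skin, protein synthesis is high in the dividing cells of the epidermis and of the growing hair follicle.

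The deposited values are log2 intensities per probe set, and 1 unit is a doubling. The 7 measured basal keratinocyte markers (Krt5, Krt14 and others) and the 7 measured differentiated keratinocyte markers (Krt1, Krt10 and others) were all above the median of the probe set means (4.78). Of the 75 genes, 65 had a mean above the upper quartile of all probe set means (6.82) and 8 lay between the quartiles. Rpl10l and Rpl39l lay below the lower quartile of 3.13. Rpl10l, a relative of Rpl10 known from testis, had a mean of 2.52 (range 2.01 to 3.50 over all mice), and Rpl39l, a relative of Rpl39 also known from testis, had a mean of 2.59 (range 2.13 to 3.25). Signals of different probe sets depend on their probes and are not ranked against each other here.

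Ribosomal protein genes have many near-identical processed copies in the genome, so a probe set can take up signal from more than 1 locus, and the identity of each signal is uncertain to that extent. The 75 genes had 384 single-symbol probe sets. For each gene the probe set with the highest mean was used. Among the 55 genes with several, the median correlation between probe sets of 1 gene across mice was 0.889 at the median gene and at least 0.9 in 24 genes. It was under 0.5 in 3 genes, Rplp0 (0.38), Rps9 (0.25) and Rps15a (-0.11), whose probe sets did not all follow each other. The closest probe sets of Rplp0 still correlated at 0.928 and those of Rps15a at 0.924. A further 64 probe sets that name a ribosomal protein beside another symbol were not used, so Rpl22l1 and Rpl36al were not analysed here, and genes such as Rpl26, Rpl34, Rplp2 and Rps19 rest on a single probe set of low signal.

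Genotype was examined first, as the main contrast of the series. No ribosomal protein gene passed the threshold in HET skin. Over all genes 0.0319% were called higher and 0.0797% lower (limma, Benjamini-Hochberg adjusted p under 0.05), and 0 of the 75 were called either way. Their differences, HET minus WT on the log2 scale, were mostly small and above 0. The median was 0.039, 66 of 75 lay above 0, and the median of all genes was -5.9e-05. At an unadjusted p under 0.05, 19 of the 75 were higher (25.3%) and 0 lower, where 3.25% of all genes were higher and 3.31% lower. All 10 hair matrix and shaft markers lay below 0 in the same contrast, with a median of -0.23, as did all 5 macrophage markers (-0.11) and all 5 mast cell markers (-0.079), with 0 of these called. Other lists lay mostly above 0, also with 0 called. These were melanocyte (5 of 5, median 0.107), sebocyte (5 of 6, 0.079), basal keratinocyte (6 of 7, 0.038) and differentiated keratinocyte markers (6 of 7, 0.025). With the scores of hair, adipocyte, muscle and fibroblast markers as covariates, the median of the ribosomal protein genes was 0.027 and 58 of 75 lay above 0. In bulk skin, fewer cells of a type and less RNA per cell cannot be told apart.

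Rpl27a, a 60S protein whose gene lies on chromosome 7, had the smallest p. Its level ran from 9.41 over a median of 9.78 to 10.33 in WT mice and from 9.60 over 9.92 to 10.36 in HET mice. The ranges overlapped almost wholly. The difference was 0.122 ± 0.034 (SE, log2), with a limma adjusted p of 0.218. All 9 Rpl27a probe sets gave a difference above 0 (0.096 to 0.134), and 1 of them was called when each of 21201 single-symbol probe sets was fitted alone (0.0377% called higher).

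Rpl23a, a 60S protein at the exit of the peptide tunnel, differed by 0.111 ± 0.034 (SE, limma adjusted p = 0.342). For Rpl5, which carries 5S rRNA into the 60S subunit together with Rpl11, the difference was 0.062 ± 0.020 (SE, limma adjusted p = 0.442). The 40S genes Rps13 and Rps7 differed by 0.087 ± 0.029 and 0.063 ± 0.023 (SE), with limma adjusted p of 0.470 and 0.567. None of these passed the threshold. For 71 of the 75 genes the 95% interval of the genotype difference lay within 0.2 log2 units of 0 on both sides. The same held for 16681 of all 18810 genes, so narrow intervals are not particular to the ribosomal protein genes.

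Rplp2, an acidic protein of the ribosomal stalk, is the ribosomal protein gene nearest to Hras, 16 measured genes after it. Its level ran from 4.12 over 4.97 to 5.43 in WT and from 4.68 over 5.07 to 5.32 in HET mice. The difference of 0.103 ± 0.040 (SE) had a limma adjusted p of 0.584. The other 8 ribosomal protein genes of chromosome 7, Rps15a, Rps13, Rpl27a, Rps3, Rpl13a, Rps19, Rpl28 and Rps9, lie more than 250 measured genes from Hras and were not called either.

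The genes most often used to stand for the ribosome differed little by genotype. Rplp0 differed by 0.020 (95% interval -0.017 to 0.056), Rplp1 by 0.034 (-0.015 to 0.083), Rpsa by 0.047 (-0.020 to 0.114) and Rps6 by 0.045 (0.0098 to 0.079). The X-linked genes Rps4x, Rpl36a and Rpl39 differed by 0.042, 0.045 and 0.042, and Rpl10 by -0.0096. The paralogues Rpl39l, Rps27l, Rpl3l, Rpl7l1 and Rpl10l differed by 0.066, 0.042, 0.030, 0.019 and 0.0047, with limma adjusted p from 0.837 to 0.993.

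The genotype differences were not alike on the 3 plates. The median over the 75 genes was 0.0068 on plate 1 (40 above 0), 0.061 on plate 2 (65 above 0) and 0.045 on plate 3 (65 above 0). It was 0.050 in females alone and 0.021 in males alone. The test of that difference between the sexes, a genotype by sex term, called 0 of the 75 genes and 0% of all genes (limma). At an unadjusted p under 0.05, 7 of the 75 had a smaller genotype difference in males than in females (2.28% of all genes) and 0 a larger one (2.48%). The smallest p belonged to Rpl37, a 60S protein, at -0.216 ± 0.068 (SE, males minus females, limma adjusted p = 0.998). Rpl19 (-0.103), Rpl23a (-0.164), Rps28 (-0.133) and Rplp2 (-0.181) followed with the same adjusted p.

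**Figure D1:**
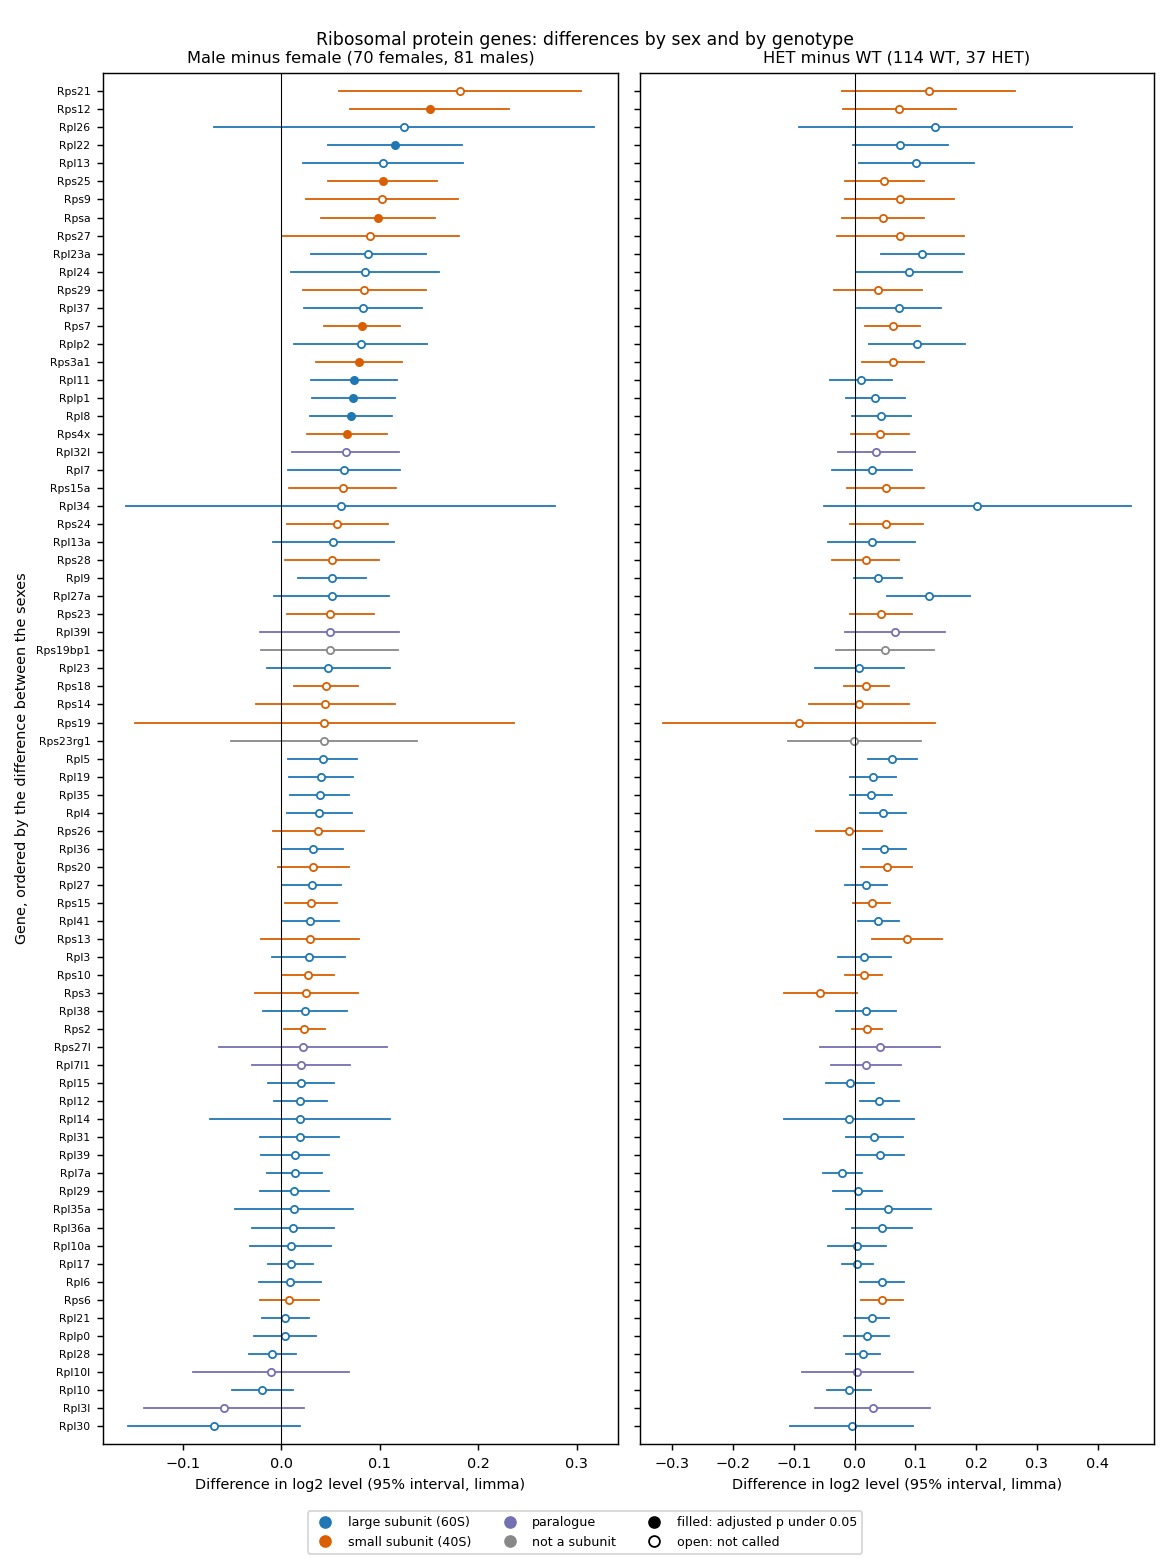
Differences in log2 level of the 75 ribosomal protein genes between the sexes (left, male minus female) and between genotypes (right, HET minus WT), with 95% intervals from limma on the horizontal axes. Each row is 1 gene, colours give the subunit, and filled points mark the 10 genes called between the sexes; no gene is filled in the right panel.

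Between the sexes, 10 of the 75 genes rose in males and 0 fell. The background was 1.1% of all genes called higher in males and 2.51% called lower (limma adjusted p under 0.05). The changes were small, 1.05 to 1.11 fold. Of the 10 genes, 6 encode 40S proteins (Rps7, Rps12, Rps25, Rps3a1, Rpsa and Rps4x, of 25 measured) and 4 encode 60S proteins (Rplp1, Rpl8, Rpl22 and Rpl11, of 42 measured).

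Rps7, a 40S protein needed for processing of the 18S rRNA, had the smallest p. Its level ran from 9.98 over a median of 10.33 to 10.58 in females and from 10.15 over 10.39 to 10.73 in males. The male distribution was shifted up within a wide overlap. The difference was 0.082 ± 0.020 (SE, limma adjusted p = 0.0048).

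Rps12, a 40S protein of the beak of the subunit, had the largest called difference. It ran from 9.29 over 9.79 to 10.39 in females and from 9.37 over 9.999 to 10.53 in males, and the difference was 0.150 ± 0.041 (SE, limma adjusted p = 0.017). All 12 of its probe sets were called higher in males when fitted singly (1.29% of all single-symbol probe sets), with differences of 0.147 to 0.158. For Rps25, a 40S protein used in internal initiation, females ran from 9.55 over 10.01 to 10.41 and males from 9.69 over 10.06 to 10.45. The ranges again overlapped, and the difference was 0.103 ± 0.028 (SE, limma adjusted p = 0.018).

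The other 40S genes called were Rps3a1 (0.079 ± 0.022, SE), Rpsa, the laminin receptor homologue on the 40S surface (0.098 ± 0.029), and Rps4x, which is X-linked (0.066 ± 0.021). Their limma adjusted p-values were 0.023, 0.036 and 0.043. Among 60S genes, Rplp1 of the stalk differed by 0.073 ± 0.021 and Rpl8, near the peptidyl transferase centre, by 0.071 ± 0.021 (SE, limma adjusted p = 0.028 and 0.033). Rpl22, which is dispensable for translation in most tissues, differed by 0.115 ± 0.034 and Rpl11, the partner of Rpl5, by 0.074 ± 0.022 (SE, limma adjusted p = 0.034 and 0.038). Male and female ranges overlapped for each of the 75 genes.

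Genes that did not pass lay mostly on the same side. At an unadjusted p under 0.05, 37 of the 75 were higher in males and 0 lower, against 5.61% and 10.7% of all genes. Of the 75 differences 70 lay above 0, and all 25 of the 40S genes did, with medians of 0.052 (40S), 0.031 (60S) and 0.021 (paralogues). The median over all genes was -0.0060. Just outside the threshold were Rpl23a (0.088, limma adjusted p = 0.073), Rpl9 (0.052, 0.073) and Rps21 (0.181, 0.080), all above 0.

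Several well-known members were not called. Rplp0, the stalk base and a common reference gene in quantitative PCR, differed by 0.0033 with a 95% interval of -0.028 to 0.035. Rps6, the substrate of the S6 kinases, differed by 0.0079 (interval -0.022 to 0.038). Of the X-linked genes other than Rps4x, Rpl10 differed by -0.020 (interval -0.051 to 0.012), Rpl36a by 0.012 (-0.030 to 0.054) and Rpl39 by 0.014 (-0.021 to 0.048). Of the paralogues, the muscle-specific Rpl3l differed by -0.058, Rpl39l by 0.049, Rpl7l1 by 0.020, Rps27l by 0.022 and Rpl10l by -0.011, with limma adjusted p from 0.528 to 0.938. Rpl32l, the other paralogue, differed by 0.065 (limma adjusted p = 0.186) and was below 0.05 before adjustment.

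The difference between the sexes was largest on plate 2, though the difference between plates was not itself tested. All 10 called genes were higher in males on each of the 3 plates, and 9 of the 10 differed most on plate 2. For Rps7 the difference was 0.094, 0.141 and 0.026 on plates 1, 2 and 3, and for Rps12 it was 0.086, 0.255 and 0.124. Over the 75 genes the medians were 0.027, 0.082 and 0.016. Fitted within a single plate, limma called 0 of the 75 on each (adjusted p under 0.05). Over all genes it called 22 higher and 30 lower in males on plate 1, 22 and 50 on plate 2, and 44 and 71 on plate 3. Without plate 2, limma called 0 of the 75 (85 genes higher and 144 lower over all genes). Without plate 1 the number was 3 (0.579% of all genes higher and 1.33% lower), and without plate 3 it was 6 (0.835% and 1.55%).

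**Figure D2:**
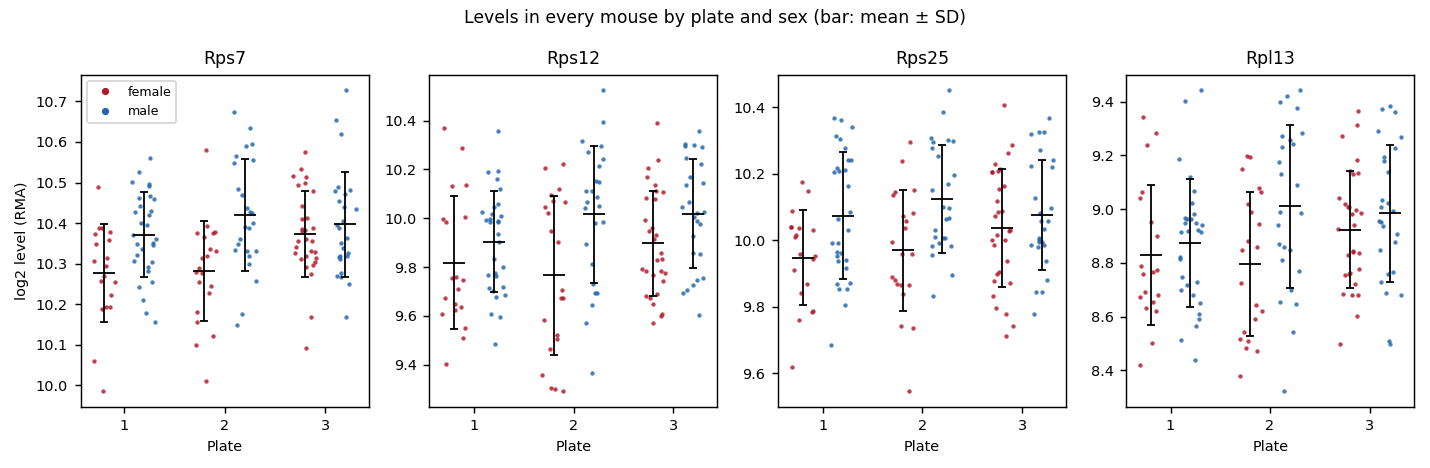
Log2 level in every mouse of Rps7, Rps12, Rps25 and Rpl13 (vertical axes) by plate (horizontal axes) and sex (red female, blue male), with mean and SD as bars. Males are shifted up within overlapping ranges, most on plate 2, where the Rps12 difference was 0.255.

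Marker genes of other tissue components moved with sex as well. All 10 hair matrix and shaft markers (Krt25, Krt71, Lef1 and others) were lower in males, 2 of them called, with a median of -0.29. Their mean level ran from 7.32 to 10.01 in females and from 7.24 to 9.84 in males. All 6 adipocyte markers (Adipoq, Plin1 and others) were lower, 2 of them called, with a median of -0.24 and mean levels of 4.28 to 5.94 in females and 3.96 to 5.66 in males. All 8 skeletal muscle markers were lower, 0 of them called and 1 at an unadjusted p under 0.05 (limma), with a median of -0.15. All 5 mast cell markers were lower, 3 of them called, with a median of -0.19. Of 7 dermal fibroblast markers 3 were called higher and 1 lower, and of 6 sebocyte markers 1 was called each way. Of the basal and of the differentiated keratinocyte markers, 1 of 7 was called higher in each list.

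With the scores of the hair, adipocyte, muscle and fibroblast markers as covariates, limma called 1 of the 75 genes, Rps7 (adjusted p = 0.038), while 59 of the 75 still lay above 0 with a median of 0.027. Over all genes this fit called 155 higher and 550 lower, against 207 and 473 without the scores. The adipocyte score alone or the hair score alone also left 1 call, Rps7, with 126 and 261 called over all genes for the adipocyte score and 136 and 417 for the hair score. The scale of the arrays moved the background more than these calls. When every array was centred on its own median, 11 of the 75 genes rose in males and 0 fell, and over all genes 291 rose and 283 fell in place of 207 and 473.

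In the deposited values the plates differed little in these genes. Between plates 1 and 2, 1 and 3, and 2 and 3, limma called 0 of the 75 genes, against 0%, 0.0213% and 0.0213% of all genes. At an unadjusted p under 0.05 there were 1, 6 and 0 of the 75 (1.33%, 8% and 0%), against 2.05%, 1.80% and 0.154% of all genes. No source used here says whether the deposited values had already been adjusted for plate. These comparisons therefore cannot show how far the plates differed before processing. Of the differences between plates, the smallest p was that of Rps4x, which was higher on plate 3 than on plate 1 by 0.071 ± 0.025 (SE, limma adjusted p = 1.00). On plate 2 it was higher than on plate 1 by 0.066 ± 0.026 (SE).

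Across mice the genes rose and fell together. After plate, sex and genotype were removed, the median Pearson correlation over the 2775 pairs was 0.189, and 82.7% of pairs were above 0. Over all pairs of genes the median was 0.0035. Pairs of 40S genes had a median of 0.311, pairs of 60S genes 0.208, and pairs of 1 gene from each subunit 0.261. Paralogues and the 2 genes that are no subunit had a median of 0.037 with the subunit genes. The median was 0.181, 0.265 and 0.150 on plates 1, 2 and 3, and 0.211 in males and 0.166 in females. These correlations are over all mice, whose arrays share normalization, and the mean of the 75 genes correlated with the array median at r = -0.287. Centring every array on its own median gave a median pair correlation of 0.302. The first principal component of the 67 subunit genes held 30.8% of their standardised variance.

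**Figure D3:**
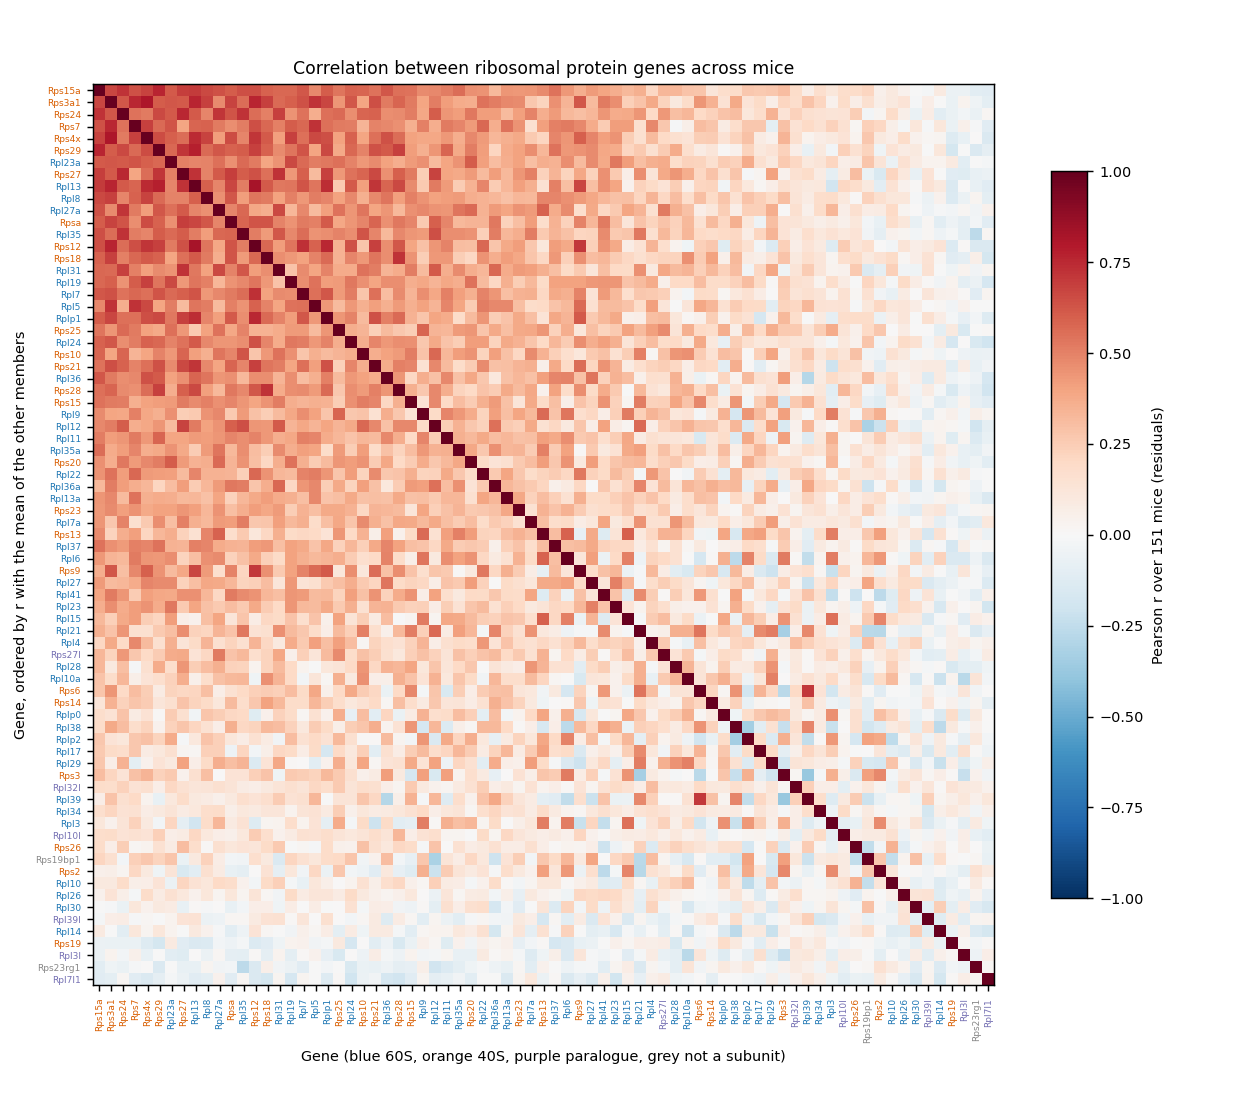
Pearson correlation over all mice between each pair of the 75 ribosomal protein genes (colour scale, residuals after plate, sex and genotype), ordered by each gene's correlation with the mean of the others; label colours give the subunit. A block of correlated genes, led by Rps15a, Rps3a1, Rps24, Rps7 and Rps4x, fades to genes such as Rpl7l1, Rps23rg1 and Rpl3l near 0.

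All 5 genes closest to the mean of the others encode 40S proteins. Rps15a correlated with that mean at r = 0.832, Rps3a1 at 0.825, Rps24 at 0.787, and Rps4x and Rps7 at 0.760 each. At the other end were the paralogue Rpl7l1 (-0.098), Rps23rg1 (-0.059), Rpl3l (-0.050), Rps19 (-0.048) and Rpl14 (-0.001). Rps19 rests on a single probe set with a mean of 4.37. Rpl14, also with a single probe set, had a mean of 8.98.

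The strongest pair was Rpl13 with Rps12 (r = 0.822 over all mice; 0.814, 0.893 and 0.731 on the 3 plates). Rps3a1 with Rps4x followed (0.809). The most negative pairs were Rpl39 with Rps3 (-0.376), Rpl38 with Rplp2 (-0.341) and Rpl21 with Rps3 (-0.329), each below 0 on all 3 plates. These pairs were picked as the extremes of 2775 and are given as a description.

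Pairs of proteins that meet in the ribosome, or are related, did not all vary together. Of 14 pairs written down, 12 were measured. Each was tested by two-sided permutation tests of r and rho with 100000 draws (smallest possible p = 1e-05) and Benjamini-Hochberg adjustment over the 12. The pairs were chosen with earlier results of these data known, so the p-values describe them and are not an independent test. Rpl5 and Rpl11, which enter the 60S subunit together with 5S rRNA, had r = 0.487 and rho = 0.440 (permutation p = 1e-05 for both, adjusted 4e-05 and 3e-05). Leaving out the 2 mice with the most extreme Rpl5 values gave r = 0.459, and on the 3 plates it ran from 0.324 to 0.678. Rpsa and Rps21, which contact each other on the 40S subunit, had r = 0.583 and rho = 0.587 (the same permutation p and adjusted values). For this pair r was 0.572 without 2 mice and 0.385 to 0.751 by plate.

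Rpl23 and Rpl19, both 60S proteins, had r = 0.441 and rho = 0.424 (permutation p = 1e-05 for both, adjusted 4e-05 and 3e-05), with 0.425 without 2 mice and 0.298 to 0.550 by plate. The paralogues Rps27 and Rps27l had r = 0.378 and rho = 0.406 (permutation p = 4e-05 and 1e-05, adjusted 0.00012 and 3e-05), with 0.376 without 2 mice and 0.203 to 0.553 by plate. Rps27l is a p53-induced relative of Rps27. These 4 pairs passed in both tests, which ask only whether a correlation differs from 0. Over all pairs of subunit genes the median r was 0.241, the upper quartile was 0.402 and 87.4% were above 0. The tests do not compare these pairs with other ribosomal pairs, so passing does not set them apart.

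The stalk pairs did not pass. Rplp1 and Rplp2, which bind the ribosome as dimers, had r = 0.147 (permutation adjusted p = 0.096). Rplp0, which anchors them, had r = 0.039 with Rplp1 (adjusted p = 0.69) and 0.181 with Rplp2 (adjusted p = 0.052). Rplp2 rests on 1 probe set of low signal (mean 4.99), and the probe sets of Rplp0 did not all follow each other. With every array centred on its own median, r was 0.191 for Rplp1 and Rplp2. It was then 0.209 for Rplp0 and Rplp1 and 0.237 for Rplp0 and Rplp2. Rpl39 and Rpl39l had r = 0.235 (permutation p = 0.0034, adjusted 0.0083) but rho = 0.181 with an adjusted p of 0.050 and r = 0.024 on plate 1. Rpl3 and Rpl3l (r = -0.098), Rpl7 and Rpl7l1 (0.025), Rpl10 and Rpl10l (0.149) and Rps3 and Rps20 (0.172) had adjusted p-values of 0.28, 0.76, 0.096 and 0.059 in the permutation test of r.

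The spread between mice differed widely and followed the signal. The residual SD over all mice was lowest for Rps2 (0.059), Rpl17 (0.064) and Rpl21 (0.069), all with means above 11. It was highest for Rpl34 (0.672), Rpl26 (0.596), Rps19 (0.594), Rps21 (0.378), Rps23rg1 (0.288) and Rpl14 (0.283). Across the 75 genes the Spearman correlation of mean signal and SD was -0.825. The median SD was 0.093 for the 23 genes with a mean of at least 11, 0.157 for the 37 from 8 to 11 and 0.247 for the 15 under 8. Over all genes with a mean of at least 11 the median SD was 0.120, and over those from 8 to 11 it was 0.156.

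**Figure D4:**
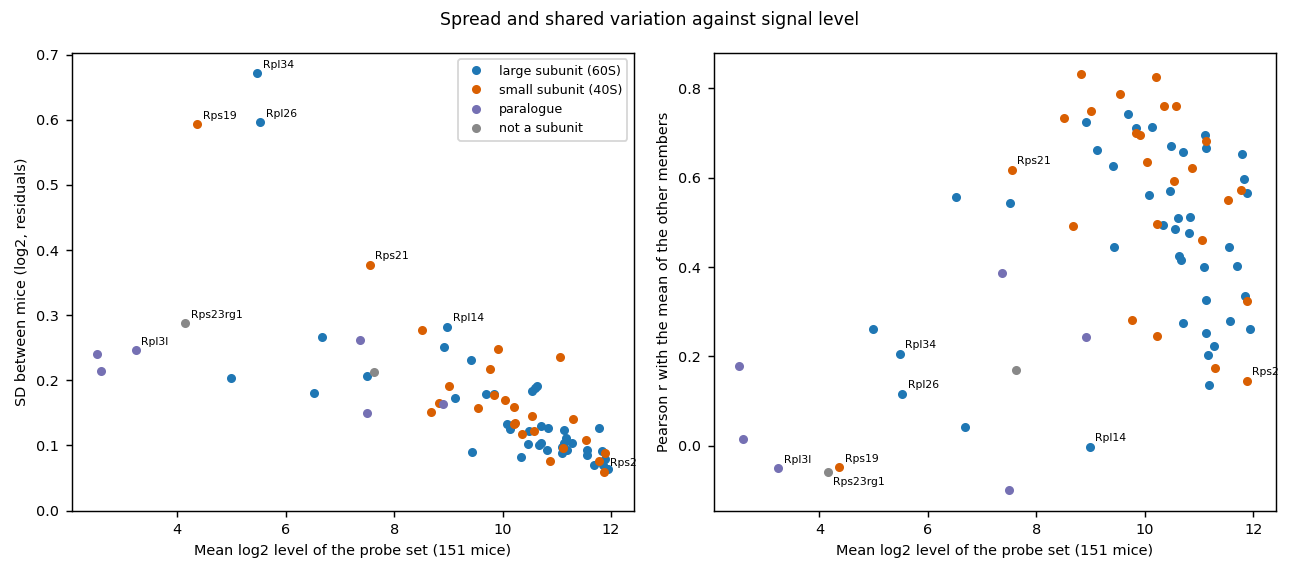
Residual SD between mice (left, log2) and Pearson correlation with the mean of the other ribosomal protein genes (right) against the mean log2 level of the probe set over all mice, 1 point per gene, coloured by subunit. SD falls as signal rises, from 0.672 for Rpl34 to 0.059 for Rps2, and Rps21 keeps a correlation of 0.618 despite its large spread.

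The high-spread genes fell into unlike groups by the genes nearest to them. Rps21, with levels from 6.48 over 7.49 to 8.72, was nearest to Rpl13 (r = 0.719), Rps12 (0.687), the small nucleolar RNA gene Snord118 (0.674) and Rps27 (0.659). Rpl14, from 8.22 over 9.02 to 9.60, was nearest to Lor, which encodes the cornified envelope protein loricrin (r = 0.502), Lce1a2, a late cornified envelope gene (0.439), Calm5 (0.415) and Gabarapl2 (0.394). For Rpl34, Rpl26, Rps19 and Rps23rg1 no gene exceeded 0.403 in absolute r, and none of their 4 nearest was a ribosomal protein gene. The nearest were N4bp1 (0.338) for Rpl34, Mymx (0.315) for Rpl26, Slc22a6 (0.403) for Rps19 and Cdkl1 (0.375) for Rps23rg1. All nearest genes named here were picked as the extremes of absolute r over all measured genes and are given as a description.

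The stretches around the start sites are shown because the genes move together and are known for a pyrimidine run there. RefSeq (GRCm38.p6) promoter windows, 250 bases before to 50 after an annotated start, were found for 62 of the 75 genes (74 windows). The lines below give 20 bases before and 20 from the start on, with the longest run of C or T near the start in capitals where it has at least 5 letters (the run of Rps25 begins before its line). Rps15a, Rps24, Rpl13, Rps12, Rps25, Rpl27a and Rpl35 have a run of 9 or more, and Rps3a1, Rps4x and the muscle paralogue Rpl3l have a short one or none. Rps24 has another annotated start, at chr14:24490733-24490772 (+) and not shown, where the longest run is 2 letters.
Rps15a, chr7:118116128-118116167 (-): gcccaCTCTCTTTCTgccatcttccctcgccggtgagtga
Rps24, chr14:24490658-24490697 (+): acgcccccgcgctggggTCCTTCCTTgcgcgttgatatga
Rpl13, chr8:123102330-123102369 (+): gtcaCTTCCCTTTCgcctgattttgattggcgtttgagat
Rps12, chr10:23787190-23787229 (-): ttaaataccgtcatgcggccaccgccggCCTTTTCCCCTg
Rps25, chr9:44407694-44407733 (+): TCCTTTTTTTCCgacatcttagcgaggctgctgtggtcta
Rpl27a, chr7:109519175-109519214 (+): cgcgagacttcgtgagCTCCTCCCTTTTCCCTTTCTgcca
Rpl35, chr2:39005112-39005151 (-): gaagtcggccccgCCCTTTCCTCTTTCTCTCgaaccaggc
Rps3a1, chr3:86142649-86142688 (-): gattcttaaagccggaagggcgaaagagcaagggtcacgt
Rps4x, chrX:102189372-102189411 (-): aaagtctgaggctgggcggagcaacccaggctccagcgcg
Rpl3l, chr17:24727806-24727845 (+): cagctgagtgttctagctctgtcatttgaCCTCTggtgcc

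A run of at least 8 C or T letters that reaches to within 10 bases of the annotated start stood in 40.5% of the 74 windows and in 14.02% of all 32851 windows. The Ets family letters CCGGAAG, on either strand, were in 36.5% against 8.86%, and the YY1 letters AAGATGG in 14.9% against 6.34%. The TATA box letters TATAAA were in 9.46% against 13.6%. The upstream stretch of Rps7 shows the Ets letters just before its start, in capitals on the opposite strand, at chr12:28635954-28636203 (-).
Rps7: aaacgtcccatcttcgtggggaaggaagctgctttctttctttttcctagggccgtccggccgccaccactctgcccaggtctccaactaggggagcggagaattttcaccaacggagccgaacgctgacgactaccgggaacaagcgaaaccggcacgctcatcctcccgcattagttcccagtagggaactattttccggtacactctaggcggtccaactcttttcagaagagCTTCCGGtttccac

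How closely a gene followed the others was set beside these letters. The 26 subunit genes with a run of at least 8 had a median correlation with the mean of the other genes of 0.533, and the 28 with a shorter run had 0.503. With and without the Ets letters the medians were 0.523 (24 genes) and 0.510 (30 genes). Rps3a1 and Rps4x, without a run in the lines above, were among the 5 genes closest to the mean. Whether the annotated starts are the ones used in tail skin was not tested. A missing run therefore does not show that the RNA lacks the tract. These are matches of letters in 1 window per annotated start, given as a description.

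Genes that work with the ribosome were compared through lists of translation factors, ribosome assembly factors, growth regulators and mitochondrial ribosomal proteins. The 20 measured members of the TOP and translation list (Eef1a1, Eef2, Tpt1, Pabpc1 and others) correlated, as a mean, with the mean of the 75 genes at r = 0.512 over all mice. For the 74 mitochondrial ribosomal protein genes r was 0.518, for the 47 assembly factors (Ncl, Fbl, Nop56 and others) 0.175, and for the 21 growth regulators (Myc, Mtor, Larp1 and others) 0.087. Within these lists the median pair correlation was 0.031, 0.082, 0.207 and 0.020. The assembly factors, at 0.207, lay between all 75 ribosomal protein genes (0.189) and the 67 subunit genes alone (0.241).

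No gene of the 4 lists was called by genotype (limma; 3, 1, 0 and 5 genes of the translation, assembly, growth and mitochondrial lists at an unadjusted p under 0.05), and few were by sex. In males Eif2s3x, an X-linked initiation factor gene with expression from both X chromosomes in females, fell by 0.58 (limma adjusted p = 1.3e-51). The mitochondrial ribosomal protein genes Mrpl13 and Mrpl51 rose by 0.104 ± 0.028 and 0.102 ± 0.028 (SE, limma adjusted p = 0.017 for both). None of 47 assembly factors and none of 21 growth regulators was called between the sexes, with 3 and 6 of them at an unadjusted p under 0.05 (limma).

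Among cell type markers the mean of the ribosomal protein genes went with differentiated keratinocyte markers (r = 0.382 over all mice; -0.004, 0.534 and 0.535 on the 3 plates). It also went with melanocyte markers (0.282) and sebocyte markers (0.195), each above 0 on all 3 plates. It went against hair matrix and shaft (-0.337), cartilage, bone and tendon (-0.274), adipocyte (-0.259) and dermal fibroblast markers (-0.226), each below 0 on all 3 plates. These r values share arrays and normalization with each other, and the part of these cells in the variation between mice was not tested.

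**Figure D5:**
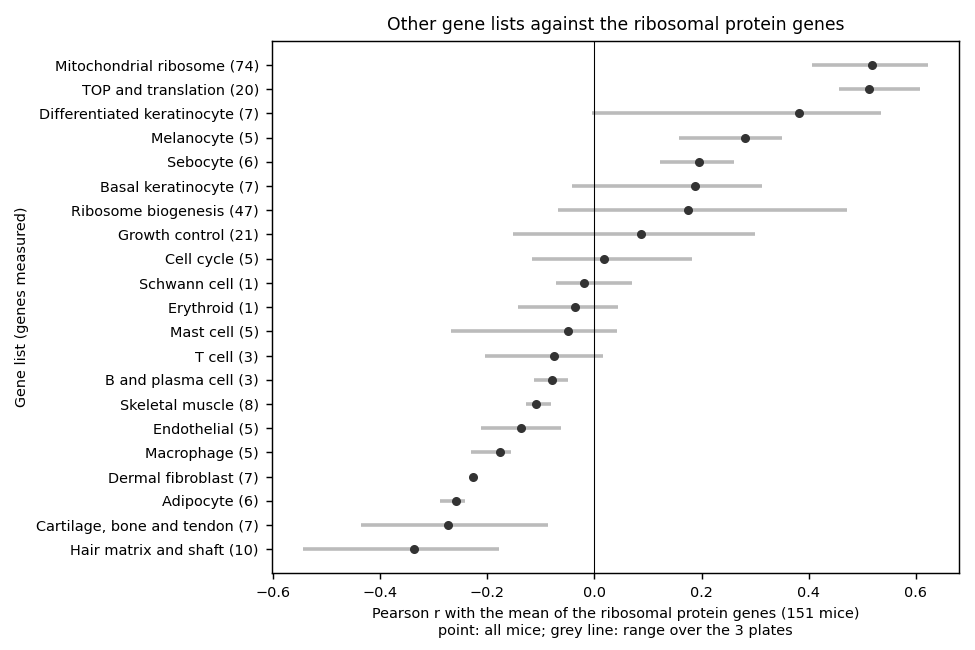
Pearson correlation over all mice (horizontal axis) between the mean of the 75 ribosomal protein genes and the mean of each other gene list (rows, number of genes measured in brackets); points are all mice and grey lines the range over the 3 plates. Mitochondrial ribosomal proteins (0.518) and translation factors (0.512) lie highest, hair matrix and shaft markers (-0.337) lowest.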

How the data were processed

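Per the submitters' processing notes the authors summarised probe sets with RMA, which gives background-corrected, normalized values, deposited as log2 (0.496 to 13.2). No source used here gives the RMA version, a later adjustment or the array's genome build. Of 35556 rows, 171 were empty. Through the platform annotation 21201 probe sets had 1 symbol, 1881 had several and 12303 had none. RefSeq (GRCm38.p6) gave current symbols, promoters and gene order. The Hras transcript is not reported here. The number of arrays limits precision.

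Models with genotype, sex and plate were fitted in R 4.3.3 by limma 3.58.1 (version 1.17.8 of data.table; lmFit, eBayes with trend; Benjamini-Hochberg over 18810 genes), with a genotype by sex term in a second model. Correlations used residuals of that fit, with scipy 1.17.1, pandas 2.3.3 and numpy 2.4.6 (Python 3.11.15, plots by matplotlib 3.10.9). On simulated arrays, 74 of 100 genes shifted by 0.2 and 99 of 100 shifted by 0.4 were recovered for genotype, and 87 and 96 for sex, with 9 and 8 false calls. Noise was drawn independently for each gene. Shifts below 0.2, as in the called ribosomal protein genes, were not simulated. The highest correlation of any 2 arrays was 0.986.

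Members, lists and pairs were chosen with earlier results of these data known. Named are called members, otherwise the 5 smallest p; a fixed set of stalk, X-linked, signalling and paralogue genes; members within 250 genes of Hras; the extremes of spread and of correlation with the others; the 4 genes nearest to each of the 6 most variable members; and called genes of the pathway lists. Alternatives covered scaling, probe sets, plate, filters, weights, trend and tissue scores. Alternatives added after the data were seen fitted every probe set alone, used marker scores 1 at a time, and left out 1 plate at a time.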

Additional observations from a re-analysis of the deposited data

How the results depend on the processing

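Counts of genes called by genotype, by the interaction and between plates were 0 under each alternative run, apart from 1 Rpl27a probe set called higher in HET when probe sets were fitted singly. The count of genes higher in males (10) was 0 within plate 1, 0 within plate 2 and 0 within plate 3. It was 3 without plate 1, 0 without plate 2 and 6 without plate 3. It was 6 with no plate term, 3 with plate as a random block, and 1 with the 4 tissue scores, 1 with the adipocyte score and 1 with the hair score. The other alternatives gave 8 to 13, and 0 genes were lower in males under any of them. The median pair correlation of 0.189 was 0.302 with arrays centred and 0.265 within plate 2. When the 10 called differences were repeated under these alternatives, 97 values lost the threshold and none changed sign.

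Over the 75 genes, genotype differences above 0 fell from 66 to 40 within plate 1 and to 53 in males alone, and sex differences above 0 fell from 70 to 53 within plate 1. Among the named genes and pairs that were repeated, these changed sign. The genotype difference of Rps13 was -0.036 within plate 1. For Rplp0 and Rplp1 r was -0.055 on plate 1 and -0.059 on plate 2, for Rpl3 and Rpl3l 0.055 on plate 2, for Rpl7 and Rpl7l1 -0.146 on plate 3, for Rpl10 and Rpl10l -0.030 on plate 1, and for Rps3 and Rps20 -0.017 on plate 3. The cause of these changes was not tested. No paired analysis was possible because the labels give each mouse its own number, which no other mouse shares. Probe sets under the lower quartile, as for Rpl10l and Rpl39l, limit what can be seen of those genes.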

Other observations

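The genes nearest to some of the paralogues lay outside the family and others within it, in values picked after they were seen. Rpl3l, the muscle form of Rpl3, was nearest over all mice to Pvalb, the calcium-binding protein parvalbumin of fast muscle (r = 0.539), Sgca, a muscle membrane protein (0.536), Ldb3 of the Z-disc (0.516) and Rbm24 (0.516). Its level ran from 2.75 over 3.25 to 4.02 in females and from 2.72 over 3.24 to 3.72 in males. Rps27l was nearest to Elof1 (0.573) and to the member Rpl27a (0.517), and Rpl10l to the member Rps28 (0.328). Rpl7l1 was nearest to the clock gene Cry2, with r = -0.519.

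The gene outside the family closest to the mean of the 75 was Ndufa6, a subunit of mitochondrial complex I (r = 0.720 over all mice). It was followed by Dcaf11 (0.634), the keratinocyte gene Krtdap (0.632) and Micos13 (0.631), and Nhp2, a nucleolar protein gene, was among the 10 highest (0.597). The most negative was Vkorc1l1 (-0.478).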
